A study of Caenorhabditis elegans with 2 samples.

Results

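The regions described here were the promoters of the serpentine chemoreceptor genes of Caenorhabditis elegans. A promoter was taken as the stretch within 500 bp on either side of each annotated 5' end of a protein-coding gene. Chemoreceptor genes were chosen by name, as sr followed by 1 or 2 letters, a hyphen and a number, or as str and a number. These letters matched 1364 symbols, of which 51 name other kinds of protein, among them 36 srlf genes and the serpin genes, and were set aside. The remaining 1313 chemoreceptor promoters were compared with the 18660 other promoters among 19973 protein-coding genes of the 6 nuclear chromosomes. The rule uses names and positions only and no measured value, although earlier results of these data were known when it was set.

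The data were transcription factor ChIP-seq peak lists from whole late embryos of strain RW12259, with 1 group of 2 biological replicates. The animals carried st12259[unc-3::TY1::EGFP::3xFLAG] II, a tagged form of UNC-3 made by a CRISPR insertion, and were obtained by egg bleaching and aged 2.5 hours. The labels place this allele on chromosome II, while the annotated unc-3 gene lies on X, and the place of the insertion was not examined here. Their free text names an anti-GFP antibody for the precipitation, and their antibody field names unc-3. No untagged or untreated group and no input library was used here, so the other promoters of the same lists are the only background.

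Serpentine chemoreceptors are G protein-coupled receptors that C. elegans uses mainly in the chemosensory neurons of the head and tail to detect odours, tastes and pheromones. They form one of the largest gene groups of the animal, grouped into families and superfamilies by sequence, and many lie in clusters of neighbouring copies on chromosome V. UNC-3 is the nematode member of the COE family of transcription factors (Collier, Olf, EBF), whose vertebrate Olf member was named for its sites at olfactory genes. In C. elegans UNC-3 is known for specifying cholinergic motor neurons and for acting in the ASI chemosensory neuron. UNC-3 is made in few of the cells of a whole embryo, and peaks from whole embryos do not say in which cells a protein was bound.

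A single chemoreceptor promoter held a summit of the list named conservative, which has 631 peaks that passed the authors' reproducibility threshold. It belonged to srh-16 (WBGene00005241, chromosome V, 12291861 to 12294196, plus strand, WBcel235, the assembly also called ce11), a receptor of the srh family. The peak covered chrV:12291697-12291960, and its summit lay 32 bp upstream of the annotated 5' end, between genes. The following sequence is shown because it is the one peak of the group in the conservative list. It covers the 164 bases of the peak upstream of srh-16, chrV:12291697-12291860 on the plus strand, from the RefSeq WBcel235 genome. Capitals mark the 21 bases centred on the summit.
srh-16: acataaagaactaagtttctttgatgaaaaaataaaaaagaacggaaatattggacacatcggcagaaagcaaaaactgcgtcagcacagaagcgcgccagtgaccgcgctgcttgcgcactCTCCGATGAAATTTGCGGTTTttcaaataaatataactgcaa

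The other sequences shown are the matches to the COE palindrome, the letters TCCCNNGGGA, that share a promoter window with a ranked summit, since this palindrome is the known site of the COE family. The palindrome reads the same on both strands, and 11 of 1313 chemoreceptor windows (0.838%, 95% interval 0.419 to 1.49) held it, against 98 of 18660 other windows (0.525%, 0.427 to 0.64). Of the 98 other windows, 54 (55.1%) also held a summit of the longer ranked list, as did 31.8% of all protein-coding promoters. Of the 11 chemoreceptor windows, 4 (36.4%) did. Each is printed as 60 bases on the strand of its gene, at chrIV:16321523-16321582 for srz-61 (plus strand), chrV:15294065-15294124 for str-96 (minus), chrV:16190331-16190390 for srh-281 (plus) and chrV:19400949-19401008 for srw-86 (minus). Capitals mark the palindrome.
srz-61: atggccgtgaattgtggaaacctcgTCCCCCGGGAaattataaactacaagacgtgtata
str-96: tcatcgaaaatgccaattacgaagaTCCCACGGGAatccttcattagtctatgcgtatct
srh-281: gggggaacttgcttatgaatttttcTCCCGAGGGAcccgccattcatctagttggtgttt
srw-86: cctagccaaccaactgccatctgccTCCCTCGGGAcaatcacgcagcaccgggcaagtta

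The nearest ranked summit lay 52 bp from the centre of the palindrome at str-96 and 128 bp from it at srw-86. At srz-61 it lay 622 bp away and at srh-281 896 bp away, so in these windows the palindrome and the summit share the window but not the place. Of all 11 palindromes at chemoreceptor genes, str-96 had the only one with a ranked summit within 100 bp. That summit had a signal of 8.6, while a second summit of str-96, 20 bp downstream of its 5' end in coding sequence, had 29.9. The peak that covers the 5' end of str-96 had a signal of 15.2 in replicate 1 and 15.8 in replicate 2. The summit of srw-86 had 37.3, with 12 in replicate 1 and no peak in replicate 2. None of the 11 windows held a conservative summit, against 3 of the 98 other windows with the palindrome. A palindrome match is a description of the letters, not of binding.

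In the conservative list, srh-16 was 1 of 1313 chemoreceptor promoters (0.0762%, exact 95% interval 0.00193 to 0.424), against 333 of 18660 other promoters (1.78%, 1.60 to 1.98). Over all protein-coding promoters the share was 1.67%. The intervals do not overlap. They cover counting error only, and they treat promoters as separate although 914 of the 1313 genes (69.6%) have another chemoreceptor gene next to them in gene order. In the thresholded list of replicate 1 alone, 0 of 1313 chemoreceptor promoters held a summit, which allows up to 0.281%, against 187 of 18660 other promoters (1.00%). In that of replicate 2 alone 2 held one (0.152%), srh-16 and sri-5, against 179 other promoters (0.959%). The order of the groups was thus the same in each replicate. A second thresholded list made from both replicates held a summit at 2 of 1313 chemoreceptor promoters (0.152%), again srh-16 and sri-5. It held one at 336 of 18660 other promoters (1.8%).

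The srh-16 peak had a signal of 85.2, close to the median of 81.5 of the conservative list, and ranked 288 of 631. Signal is the deposited strength of a peak, of unstated unit, and can be compared only within a list. In the lists of single replicates the peak had 38.2 in replicate 1, where it was ranked but not thresholded, and 44.8 in replicate 2, where it passed the threshold.

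The ranked list is much longer, goes far below the reproducibility threshold and includes weak peaks. In it, 190 of 1313 chemoreceptor promoters held a summit (14.5%, 12.6 to 16.5), against 6167 of 18660 other promoters (33.0%, 32.4 to 33.7). Over all protein-coding promoters the share was 31.8%. Chemoreceptor promoters were thus below the other promoters in this list too, with intervals that do not overlap. In the ranked list of replicate 1 alone the shares were 21.7% of chemoreceptor and 39.2% of other promoters. In that of replicate 2 they were 22.5% of chemoreceptor and 39.7% of other promoters.

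Chemoreceptor promoters with a ranked summit in 1 replicate also held one in the other replicate less often than other promoters did. Of the 285 that held a ranked summit in replicate 1 and the 295 that held one in replicate 2, 106 did so in both, which is 37.2% of the replicate 1 promoters and 35.9% of those of replicate 2. For the other promoters the corresponding shares were 56.9% and 56.1%. These shares count promoters, whether or not the summits of the 2 replicates lay at the same place. A share in common rises with the share of promoters that hold a summit at all, and how much of this gap comes from that was not tested.

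Where chemoreceptor promoters held a ranked summit, its signal was a little below that at other promoters. The 211 summits at chemoreceptor promoters had a median signal of 25.2, with quartiles of 21.4 and 30.4 and a highest value of 90.3. The 7703 summits at other promoters had a median of 27.5, with quartiles of 21.0 and 34.4 and a highest value of 808. The middle ranges overlap widely, and the groups differ more at the upper than at the lower quartile. Of the 211 chemoreceptor summits, 2 (0.948%), those at sre-47 and srh-16, exceeded the conservative median of 81.5, against 127 of the 7703 others (1.65%). The same 2 passed an irreproducible discovery rate (IDR) of 0.01, against 270 of the others (3.51%). Both chemoreceptor shares rest on these 2 summits, and no interval was computed for them. In single replicates the median was 15.5 at chemoreceptor and 16.3 at other promoters in replicate 1, and 13.4 at chemoreceptor and 14.4 at other promoters in replicate 2.

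**Figure D1:**
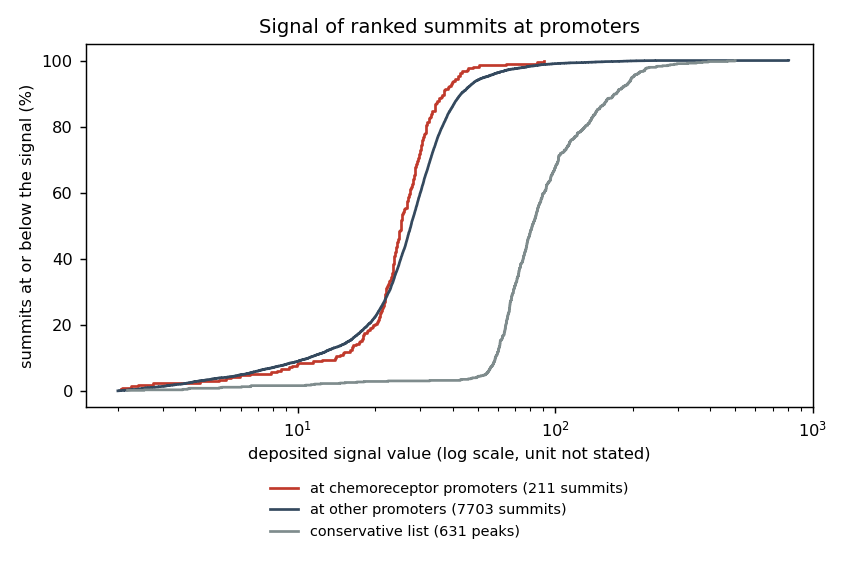
Cumulative share of summits (percent, vertical axis) at or below each deposited signal value (log horizontal axis, unit not stated), for ranked summits at chemoreceptor promoters, ranked summits at other promoters and all peaks of the conservative list. The first 2 curves run close together around their medians of 25.2 and 27.5, left of the conservative list with its median of 81.5.

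The 8 chemoreceptor genes of highest ranked signal without a conservative summit were sre-47, sri-5, srh-170, srx-51, str-256, sri-28, srh-55 and srh-269, with signals between 90.3 and 42.9. The peak of sre-47, 377 bp upstream of its 5' end on II, had 90.3, above that of srh-16. It had 35.8 in replicate 1 and 71.5 in replicate 2. Of the words of 31 bases around the summit of this peak, 83.1% occur more than once in the genome, so reads there could belong to several places. The peak of srh-170 had 50.5, with 34.4 in replicate 1 and no peak in replicate 2, and 52.7% of the words around its summit were repeated. These are the peaks of this set in which repeated words were the majority.

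The peak of sri-5, 267 bp upstream on I, had a signal of 64.6 and no repeated words around its summit. It lay in the promoter window of rsr-1 as well, a gene for an SR-related RNA processing protein, and had 24.5 in replicate 1 and 36.5 in replicate 2. Of all 211 summits at chemoreceptor promoters, 11 (5.21%) lay in another gene's window too. These 11 had a median signal of 25.9, against 25.1 for the 200 that were not shared. The peaks of srx-51 (48.1) and sri-28 (45.6) lay in introns, that of srh-55 (43.5) in coding sequence, and those of str-256 (46.0) and srh-269 (42.9) between genes. The srh-269 peak overlapped a tRNA gene.

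Summits at chemoreceptor genes were spread over the whole window, with 7.58% to 12.8% in each stretch of 100 bp. Of the 211 summits, 100 lay upstream of the 5' end (47.4%, 40.5 to 54.4), against 4032 of 7703 at other promoters (52.3%, 51.2 to 53.5). Within 100 bp of the 5' end lay 45 chemoreceptor summits (21.3%, 16 to 27.5), against 1867 others (24.2%, 23.3 to 25.2). In the stretch from 200 to 100 bp upstream, where summits at other promoters were most frequent, lay 7.58% of chemoreceptor summits and 13.2% of the others. Coding exons held 74 of the 211 chemoreceptor summits (35.1%, 28.6 to 41.9), against 27.4% of the others (26.4 to 28.4). Untranslated exons held 8 of them (3.79%, 1.65 to 7.33), against 9.18% of the others (8.54 to 9.85). The intervals overlap for the upstream side and for the distance of 100 bp, and lie apart for both kinds of exon though barely for coding exons. The annotation gives a single 5' end for 92.6% of chemoreceptor genes and 72.4% of other genes.

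**Figure D2:**
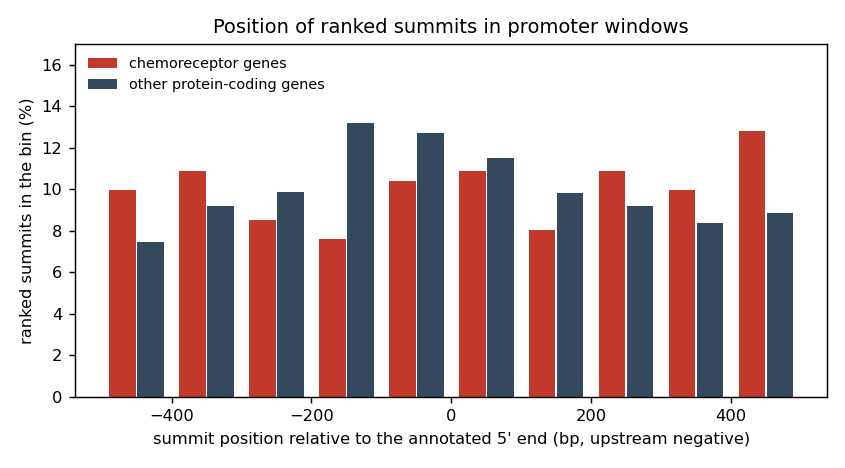
Share of ranked summits (percent) in bins of 100 bp by position relative to the annotated 5' end (bp, upstream negative), for chemoreceptor genes beside other protein-coding genes. Bars of chemoreceptor genes lie between 7.58% and 12.8%, and from 200 to 100 bp upstream they stand at 7.58%, where other genes have 13.2%.

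The low share was seen across families. The 1313 genes fall into 25 families, of which 20 had at least 1 ranked summit and srh alone a conservative one. Among the 16 families with 30 or more promoters, the ranked share ran between 7.69% in sru (3 of 39) and 21.3% in sri (13 of 61). The interval lay wholly below the 33.0% of other promoters in 14 of the 16, the exceptions being sri (11.9 to 33.7) and srv (7.71 to 38.6). The intervals of the sru and sri families overlap, so the order of the families is not resolved at these counts.

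The 2 largest families, both of the Str superfamily, are srh and str. The srh family had a ranked summit at 40 of 220 promoters (18.2%, 13.3 to 23.9) and str at 21 of 193 (10.9%, 6.86 to 16.2). Over whole superfamilies, Sra had 12 of 124 (9.68%), Srg 41 of 310 (13.2%), Str 93 of 587 (15.8%) and the families outside these 44 of 292 (15.1%). Median ranked signals of families with 10 or more summits lay between 22.1 in srg and 29.7 in srbc.

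**Figure D3:**
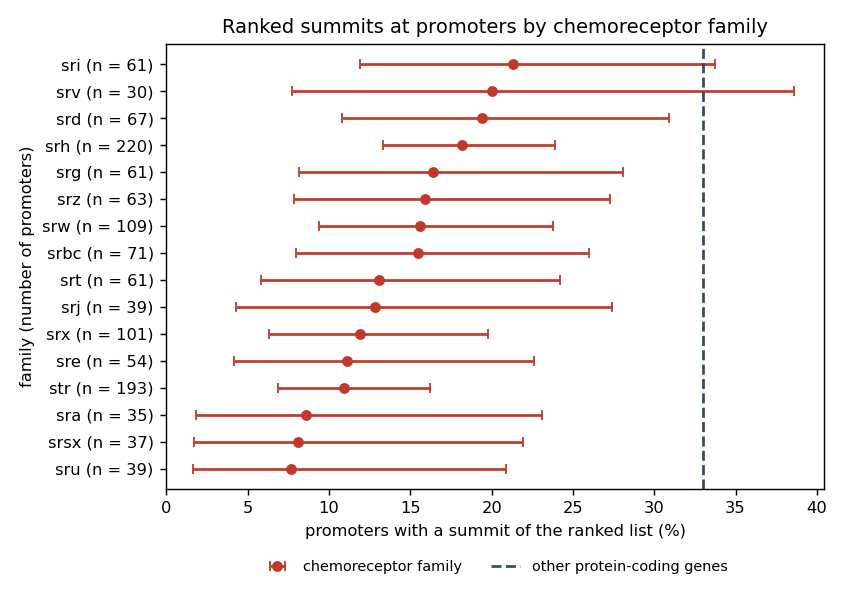
Share of promoters with a summit of the ranked list (percent, horizontal axis) for the 16 chemoreceptor families of 30 or more promoters, with exact 95% intervals, beside the share of other protein-coding genes (dashed line, 33.0%). All 16 families lie left of the line, between 7.69% and 21.3%, and 14 intervals do not reach it.

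Receptors with a known neuron or ligand showed no summit. This list holds 27 genes, among them str-2, a marker of the AWC olfactory neuron, sra-6, a marker of the ASH nociceptor, str-3, a marker of ASI, and the ascaroside pheromone receptors srg-36 and srg-37 of ASI. None of the 27 had a conservative or ranked summit within 500 bp, which allows a share of up to 12.8% by the exact interval. The ranked share was 14.5% over all chemoreceptor and 33.0% over other promoters, and the conservative one 0.0762% and 1.78%. In the longer ranked list of each single replicate 4 of the 27 had a summit. Over all chemoreceptor promoters the share there was 21.7% in replicate 1 and 22.5% in replicate 2. Over other promoters it was 39.2% in replicate 1 and 39.7% in replicate 2. The nearest summit of the ranked list lay between 562 and 23762 bp away, with a median of 1740 bp. For str-3 it lay 1758 bp away with a signal of 25.9, for srg-36 5510 bp and for srg-37 6076 bp away, both with 26.7.

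Beyond the 500 bp window, the conservative peak nearest a receptor of this list was that of sre-1, a receptor of the ADL neuron. It lay 921 bp upstream, with a conservative signal of 118, and passed the threshold in replicate 1 (62.5) and in replicate 2 (55.2). It and the following genes were chosen after their values were seen. With windows of 2000 bp, 0.914% of chemoreceptor and 3.76% of other promoters held a conservative summit. Within 2000 bp of a chemoreceptor 5' end lay 11 conservative summits belonging to 12 genes, including that of srh-16. Of these 11, 5 lay within 500 bp of a tRNA or snoRNA gene, and the highest 4 were among them. The highest were those 620 bp upstream of sre-23 (354, near a snoRNA gene) and 1399 bp downstream of the str-56 5' end (290, also near a snoRNA gene). Away from short RNA genes, srh-246 had a summit 567 bp upstream with a signal of 81.5, with 36.7 in replicate 1 and 49.7 in replicate 2. The others away from such genes were at srt-11 (131), srh-24 (97.7) and srv-14 (90.9).

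Genes that act with the receptors or regulate them were looked at in the same way, beside the shares of 31.8% (ranked) and 1.67% (conservative) over all promoters. Among 26 genes of chemosensory signalling, none had a conservative summit and 4 (15.4%, 4.36 to 34.9) a ranked one, namely the guanylate cyclases gcy-5 and daf-11, the receptor kinase grk-2 and the cGMP-dependent kinase egl-4. Among 27 transcription factors of chemosensory neurons, 15 (55.6%, 35.3 to 74.5) had a ranked summit. One of them, daf-19, the RFX factor of ciliated neurons, had a conservative one, 199 bp upstream of a 5' end, with a signal of 56.6 (27.5 in replicate 1 and 34.6 in replicate 2). A single conservative summit in 27 genes is near what the share over all promoters gives. Among 16 regulators of chemoreceptor expression, 10 (62.5%, 35.4 to 84.8) had a ranked summit and none a conservative one. Of the 15 transcription factor genes, unc-3 itself had a ranked summit 342 bp upstream with a signal of 35.3. These lists hold genes with many annotated 5' ends and hence longer windows, and the part of this in their shares was not tested.

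Base composition moved with these shares. The median GC content of the windows was 33.6% for chemoreceptor and 35.7% for other genes, and 527 of the 1313 chemoreceptor windows (40.1%) fell in the lowest of 5 equal groups of all windows by GC. In that group, 1 of 527 chemoreceptor promoters (0.190%) held a conservative summit, against 8 of 3539 others (0.226%), a difference far inside counting error. In the higher groups together, 0 of 786 chemoreceptor promoters did, which allows up to 0.468%, against 325 of 15121 others (2.15%, 1.92 to 2.39). In the ranked list the chemoreceptor share was the lower one in all 5 groups, with 7.59%, 13.2%, 17.3%, 22.9% and 35.9% of chemoreceptor promoters from low to high GC, against 18.5%, 26.9%, 33.2%, 38.3% and 46.9% of other promoters. Both groups thus rose with GC, and only in the highest group do their intervals overlap.

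**Figure D4:**
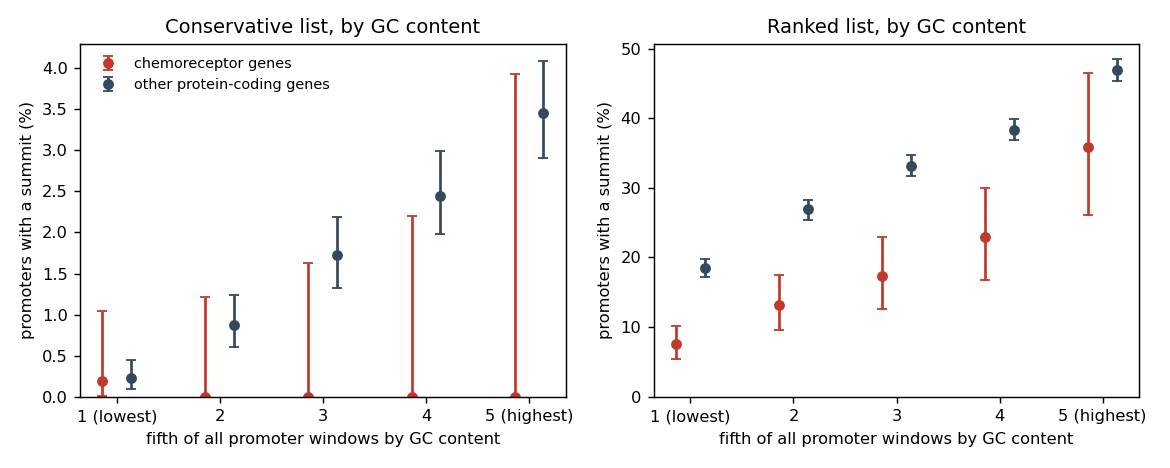
Share of promoters with a summit (percent) of the conservative list (left) and the ranked list (right) in 5 equal groups of all promoter windows by GC content, for chemoreceptor and other protein-coding genes, with exact 95% intervals. In the ranked list the chemoreceptor points lie below the others in each group, between 7.59% and 35.9%, and in the conservative list both are near 0 in the lowest group.

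When other promoters were weighted to the make-up of the chemoreceptor promoters by chromosome and GC group together, their conservative share was 0.925%, which would be 12.1 chemoreceptor genes where 1 was seen. Their ranked share on that weighting was 24.8%, or 325 genes where 190 were seen. Weighted by chromosome alone these shares were 1.43% and 29.9%. The 1199 other genes that lie next to a chemoreceptor gene had a conservative summit at 10 promoters (0.834%, 0.401 to 1.53). They had a ranked one at 22.9% (20.6 to 25.4). Both values lay between those of the chemoreceptor genes and of all other genes. The conservative interval overlaps that of the chemoreceptor genes (0.00193 to 0.424), so only the ranked share is resolved as lying between. Among genes with a single annotated 5' end, whose windows are all of 1 length, 13.9% of chemoreceptor and 27.8% of other promoters held a ranked summit, and 1 of 1216 chemoreceptor and 193 of 13507 other promoters (1.43%) a conservative one. Windows made mostly of repeated words were 3.05% of chemoreceptor and 2.90% of other windows.

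Other expanded families of the worm served as a further comparison. The ranked share was 30.5% (25 to 36.4) for 269 nuclear hormone receptor promoters, 18.9% (14.8 to 23.7) for 322 F-box promoters and 17.1% (12.5 to 22.5) for 240 C-type lectin promoters. The conservative list held 2 nuclear hormone receptor (0.743%, 0.0902 to 2.66), 2 F-box (0.621%, 0.0753 to 2.23) and 0 C-type lectin promoters (up to 1.53%), against 1.67% of all promoters. These intervals are wide, and those of the first 2 include that share. The interval of the chemoreceptor share, 12.6 to 16.5, overlaps those of the F-box and C-type lectin promoters.

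Short sequence words were counted in the same windows. The letters GAGAGA (or TCTCTC on the other strand) occurred in 29.9% of chemoreceptor windows (27.4 to 32.4), against 50% of other windows (49.3 to 50.7). TGATAA (or TTATCA), of the kind read by GATA factors, occurred in 71.6% of chemoreceptor and 69.2% of other windows. The E-box CAGCTG occurred in 20.1% of chemoreceptor and 22.0% of other windows. The E-box CACCTG (or CAGGTG) occurred in 35.0% of chemoreceptor windows (32.5 to 37.7) and 27.1% of other windows (26.5 to 27.8). The intervals thus lie apart for GAGAGA, which was the rarer one in chemoreceptor windows, and for CACCTG, which was the more frequent one there. Among windows with a single 5' end, GAGAGA occurred in 28.8% of chemoreceptor and 44.7% of other windows, and CACCTG in 34.5% of chemoreceptor and 23.5% of other windows. The part of GC content in these shares was not tested.

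On chromosome V, the 890 chemoreceptor promoters (67.8% of all) made up 17.8% of the 4994 protein-coding promoters. There 1 of 890 chemoreceptor promoters (0.112%) held a conservative summit, against 48 of 4104 others (1.17%, 0.864 to 1.55). On the other chromosomes 0 of 423 chemoreceptor promoters did, against 285 of 14556 others (1.96%, 1.74 to 2.20). In the ranked list, 134 chemoreceptor promoters of V held a summit (15.1%), against 28.0% of the others on V. On the other chromosomes 13.2% of chemoreceptor and 34.5% of other promoters did. The chemoreceptor share was the lower one on each of the 6 chromosomes in both lists, although I, III and X have only 31 to 34 such genes and their intervals are wide. With each chromosome cut into 3 equal lengths, the outer lengths held 75.9% of chemoreceptor and 61.3% of other promoters. In the outer lengths the ranked share was 16.5% for chemoreceptor and 35.4% for other promoters, and in the middle length it was 8.20% for chemoreceptor and 29.4% for other promoters. The srh-16 promoter lies in the middle length of V. Among other genes X had the lowest conservative share, 0.890%, below that of V.

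**Figure D5:**
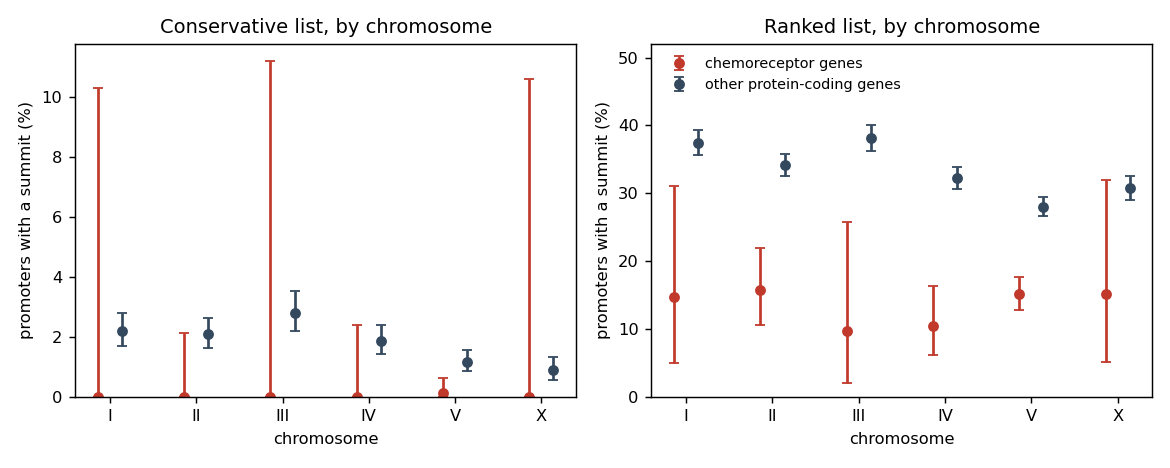
Share of promoters with a summit (percent) of the conservative list (left) and the ranked list (right) on each chromosome, for chemoreceptor and other protein-coding genes, with exact 95% intervals. Chemoreceptor points lie below the others on every chromosome, and among other genes V has the lowest ranked share at 28.0%.

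The conservative list has few peaks on V. It placed 85 of 631 summits there (13.5%, 10.9 to 16.4), or 4.06 per Mb, against 6.88 per Mb on the other chromosomes. With the chemoreceptor genes counted, 0.981% of promoters on V held a summit, against 1.90% elsewhere, a ratio of 0.516. Without them the shares were 1.17% on V and 1.96% elsewhere, a ratio of 0.597. With the other chromosomes also weighted to the GC groups of V the share elsewhere was 1.80% and the ratio 0.651. The gap between the other chromosomes and V was 0.921 percentage points with the chemoreceptor genes, 0.788 without them and 0.626 with the GC weighting as well, so most of it remained without them.

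At the share of V's other promoters, 10.4 chemoreceptor genes of V would have held a summit, where 1 did. Adding that many would bring V to 14.9% of the summits, while matching the density of the other chromosomes would take 144 summits on V. The shortage on V also held away from promoters, where V had 48 summits, or 2.29 per Mb, against 3.97 per Mb on the other chromosomes. X had 6.21 per Mb there, and each of the others more than V. At promoters V had 1.77 per Mb, against 2.91 per Mb on the other chromosomes pooled, and X had fewer than V, with 1.35. Without summits near short RNA genes V had 3.01 per Mb, against 4.41 per Mb on the others together and 3.16 on X. Of the ranked peaks, 18.5% lay on V, which was 267 per Mb, against 311 per Mb on the other chromosomes.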

How the data were processed

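The authors deposited peak lists on the assembly ce11, per the labels, for each replicate and for both replicates together, each with a ranked and a thresholded form. The signal of each peak (deposited, unit not stated) and, in the ranked lists, the −log10 of the IDR as deposited by the authors were used. The aligner, the caller and their settings were not given in the sources used here. Without read counts the depth is unknown, and intervals cover counting error only. In the conservative and the longer ranked list, all peaks lay on the 6 nuclear chromosomes and no peak end went beyond the RefSeq WBcel235 genome. Peaks outside these chromosomes were left out of the other lists. The thresholded list of replicate 2 thus kept 367 of 384 peaks, and its ranked list 34061 of 34079. Genes came from Ensembl release 115. Coordinates are 1-based. Many annotated 5' ends of C. elegans genes mark trans-splicing.

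A promoter counted once per list if a summit lay within 500 bp of any of its 5' ends. Shares have exact Clopper-Pearson 95% intervals. There was 1 group of samples, and no p-value was computed. Groups of promoters were compared by their shares and intervals only, without a test. Repeated words are words of 31 bases that occur more than once in the genome, and short RNA genes are tRNA, snoRNA and snRNA genes within 500 bp of a summit. The members and the gene lists were chosen with earlier results of these data known. Genes of the group are named if they held a conservative summit, or were among the 8 of highest ranked signal without one. A further result under this rule is not reported here. The alternatives covered window width, choice of 5' end, list, repeats, short RNA genes and background. The counting of summits was tested on simulated data. Tools were Python 3.11.15, pandas 2.3.3, numpy 2.4.6, scipy 1.17.1 and matplotlib 3.10.9.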

Additional observations from a re-analysis of the deposited data

How the results depend on the processing

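Chemoreceptor promoters stayed below other promoters in 12 of 12 alternatives for the conservative list and in 11 of 11 for the ranked list. These counts hold only the alternatives that gave both shares anew. Alternatives that changed the background alone are not among them. In those, the lowest share of other promoters was 0.834% (conservative) and 22.9% (ranked), beside chemoreceptor shares of 0.0762% and 14.5% in the main setting. No paired analysis was possible because there is 1 group. In the conservative list the chemoreceptor share was 0.914% with windows of 2000 bp, wider by construction, against 3.76% of other promoters. Without 1 replicate it ran between 0% and 0.152%, against 0.959% and 1.00% of others. The other promoters' share was 1.03% and 2.55% with windows of 250 and 1000 bp, 1.39% with each summit given to the nearest 5' end, 1.52% without summits near short RNA genes and 1.17% on V alone. It was 0.834% for genes next to a chemoreceptor gene, and with weighting 1.43% (chromosome), 1.38% (chromosome and place along it), 1.14% (GC) and 0.925% (chromosome and GC). In the ranked list, chemoreceptor and other shares were 7.01% and 20.9% with windows of 250 bp, 26.2% and 48.4% with 1000 bp, and 17.5% and 37.6% with any overlap. Without 1 replicate they ran between 21.7% and 22.5% for chemoreceptor and 39.2% and 39.7% for other promoters. The other promoters' ranked share was 30.8% with the nearest 5' end, 29.3% with the outermost 5' end, 30.6% with the other ranked list, 33.8% without repeated windows, 28.0% on V and 22.9% next to chemoreceptor genes. Weighted, it was 29.9% (chromosome), 30.6% (chromosome and place along it), 27.4% (GC) and 24.8% (both). The median chemoreceptor signal in single replicates ran between 13.4 and 15.5, on their own scale. The share of conservative summits on V stayed within its interval under 6 of 6 alternatives, between 11.4% and 15.3%. Weighting by GC, windows of 2000 bp and neighbouring genes were added after seeing the data. Where no construction is named, the cause was not tested. With 1 chemoreceptor summit in the conservative list, family differences there cannot be seen.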
